A study of Mus musculus with 9 samples.

Results

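The 41 genes described here are targets of interferon and genes of antigen presentation, taken by name from the 38621 genes of the table. They form 4 lists of 23 type I interferon targets, 8 GTPases induced by interferon gamma, 6 genes of MHC class I presentation, and 4 genes of MHC class II presentation. All 41 were found. Brain RNA was sequenced from 9 male C57BL/6 mice, with 3 mice per group. Mice of the ICH group had 30 μl of their own blood injected into the brain to model intracerebral hemorrhage. Mice of the feb group had the same injection after febuxostat, an inhibitor of xanthine oxidase, had been fed to them through a tube at 50 mg/kg a day over 5 days. The sham mice were injected with saline and are labelled untreated. The brain region and the time after injection are not stated for the sequenced tissue, and injected blood models the hematoma but not the rupture of a vessel. Values are RPKM, the reads of a gene scaled to the length of its exons and to all reads counted in the mouse, so they can be compared between genes.

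Type I interferons signal through a receptor at the cell surface and the kinases Jak1 and Tyk2 to a complex that holds Stat2 and Irf9 and binds interferon-stimulated response elements (ISRE) in the promoters of antiviral genes. Interferon gamma has its own receptor and acts on gamma-activated sites (GAS), and it raises guanylate-binding proteins, immunity-related GTPases, and the genes that load peptides on MHC molecules. Class I molecules are carried by nearly all cells and show peptides from the cytosol, whereas class II molecules are found mainly on professional antigen-presenting cells. In the brain, microglia and the macrophages of its borders are the resident cells best known for both programs.

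Most promoters found for the type I targets and the GTPases hold a match to an element of these programs. Of the 6 class I promoters, 1 holds an ISRE match and 1 a GAS match, and of only 2 class II promoters 0 hold either. RefSeq promoters on GRCm38.p6, from 250 bases before to 50 after each annotated start, were found for 32 of the 41 genes, and both strands were searched for an ISRE core, the letters GAAA, any 2 bases, and GAAA again, and for a GAS, TTCNNNGAA. A match is a description of the letters and not a binding site. The ISRE core was present in 20 of the 32 members (62.5%) and in 3.99% of the 27025 genes with a promoter. It was present in 12 of 17 type I targets (70.6%), 7 of 7 GTPases, 1 of 6 class I genes, and 0 of 2 class II genes. The GAS was present in 8 members (25%) and in 9.55% of all genes, with 4 of the 8 members among the GTPases. The upstream windows below are a selection of those with an ISRE core. They include Isg15, Igtp, and Irgm2, which had no p under 0.05 in any comparison. Ifi207, the member with the largest difference between ICH and sham, also has an upstream core and is not shown. Each match is in capitals with 15 bases on either side, read 5′ to 3′ on the strand of the gene. A match on the other strand reads TTTC, any 2 bases, and TTTC, and cores that overlap appear as 1 longer run.
Isg15 (chr4:156200860-156200911, minus strand): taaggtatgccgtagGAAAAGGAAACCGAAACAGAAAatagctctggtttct
Ifit1 (chr19:34640770-34640828, plus strand): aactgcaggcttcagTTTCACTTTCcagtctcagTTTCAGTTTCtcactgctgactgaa
Ifit3 (chr19:34583358-34583431, plus strand): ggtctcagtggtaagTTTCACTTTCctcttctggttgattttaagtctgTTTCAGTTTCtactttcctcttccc
Rsad2 (chr12:26456548-26456587, minus strand): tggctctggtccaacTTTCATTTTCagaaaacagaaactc
Bst2 (chr8:71537572-71537617, minus strand): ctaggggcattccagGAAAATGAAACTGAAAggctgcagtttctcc
Stat2 (chr10:128270261-128270300, plus strand): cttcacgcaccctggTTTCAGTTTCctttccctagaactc
Trim30a (chr7:104465205-104465244, minus strand): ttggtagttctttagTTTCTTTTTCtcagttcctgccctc
Gbp3 (chr3:142559984-142560029, plus strand): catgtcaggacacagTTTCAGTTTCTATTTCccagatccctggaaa
Igtp (chr11:58199507-58199546, plus strand): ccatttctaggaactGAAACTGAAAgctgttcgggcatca
Irgm2 (chr11:58214898-58214937, plus strand): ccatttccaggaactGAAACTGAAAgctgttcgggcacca
B2m (chr2:122147533-122147572, plus strand): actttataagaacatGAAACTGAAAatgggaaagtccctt

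In these upstream windows Isg15 carried 3 overlapping cores, and Ifit1, Ifit3, Bst2, and Gbp3 carried 2 each. A further core of Trim30a lies after the start and is not shown. The core of B2m was the only ISRE core among the 6 class I promoters. The whole upstream stretch of Gbp7 is shown because this GTPase holds both elements, with 2 GAS matches and, nearer the start, 1 ISRE core in capitals.
Gbp7 (chr3:142530086-142530335, plus strand): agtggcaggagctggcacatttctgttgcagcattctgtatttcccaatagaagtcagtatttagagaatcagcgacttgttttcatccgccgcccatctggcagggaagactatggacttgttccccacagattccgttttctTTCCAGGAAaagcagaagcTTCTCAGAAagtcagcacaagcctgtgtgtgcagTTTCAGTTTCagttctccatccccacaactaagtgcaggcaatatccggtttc

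**Figure D1:**
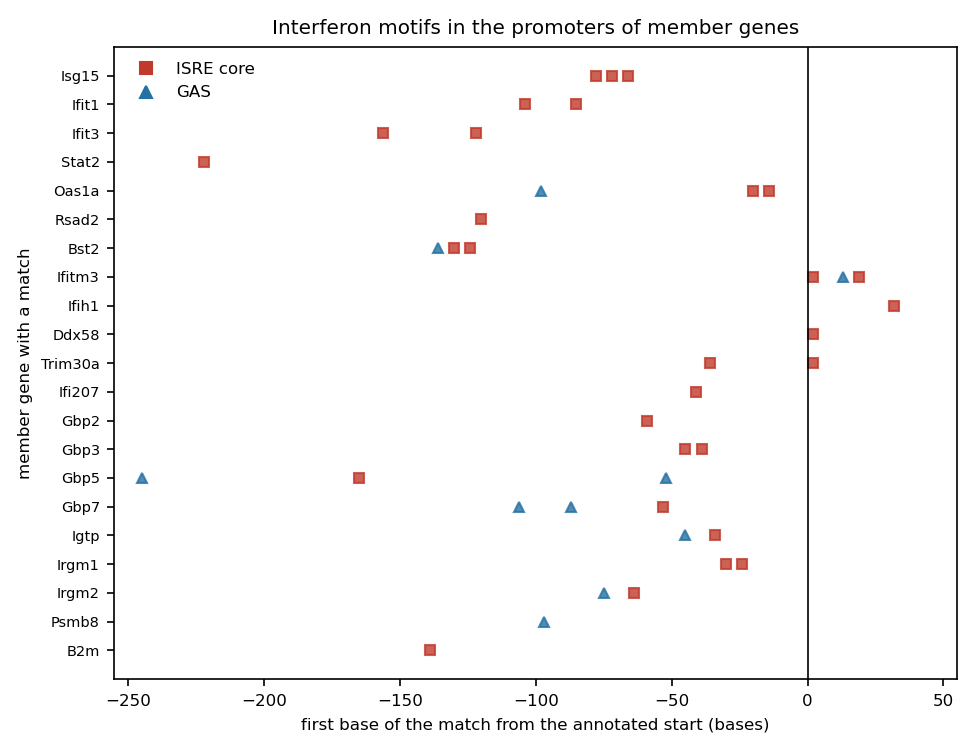
ISRE cores (red squares) and GAS matches (blue triangles) in the promoters of the 21 members with a match, by the distance in bases of the first base of the match from the annotated start (0, black line). Most matches lie within 150 bases before the start, and the GTPases, from Gbp2 to Irgm2, all have an ISRE core.

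Between 23065757 and 29538009 reads per mouse were counted on genes, and 3 reads on 1 kb of exon equal an RPKM of 0.102 to 0.130. All 10 microglia markers were above 0 in every mouse, and markers of neurons, astrocytes, and oligodendrocytes were present in every mouse, as in brain tissue. The 4 astrocyte markers summed to 146.4 to 168.9 in sham, 151.3 to 162.6 in ICH, and 128.7 to 141.2 in feb, and the 6 endothelial markers to 46.9 to 57.8, 52.3 to 56.8, and 41.7 to 47.9, so both were lower in every feb mouse than in every ICH mouse, and their part in the results was not tested. Libraries stood apart in their other cells. The summed RPKM of 10 microglia markers was 52.3 to 68.9 in sham, 78.25, 109.9, and 63.3 in ICH mice 1, 2, and 3, and 48.1 to 61.9 in feb. Hemoglobin and other red blood cell genes, 5 in all, summed to 123.8 in ICH mouse 1 and to 26.7 at the lowest in ICH, against 32.3 to 40.6 in sham and 17.1 to 21.6 in feb. The 8 choroid plexus genes summed to 365 to 1035 in sham, 458 to 967 in ICH, and 30.6 to 88.4 in feb. T and NK cell markers were low in all mice, with 7 of 9 at 0 in some mouse. They summed to 0.208 to 0.900 in sham, 1.18 to 2.44 in ICH, and 0.252 to 1.11 in feb. The 8 neutrophil markers summed to 1.08 to 2.41 in sham, 0.764 to 2.08 in ICH, and 1.28 to 2.07 in feb. Of these 8, 3 were above 0 in all 9 mice, while Ly6g was at 0 in 8 mice. In bulk tissue, fewer cells of a type and less RNA per cell cannot be told apart.

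After febuxostat, the interferon and antigen presentation genes were lower than in ICH mice without the drug. Scaling each mouse to its microglia markers adds 0.63 to the log2 fold change of every gene. On that scale the median was 0.02 for the members and 0.62 for all genes. All 40 members that passed the filter on low values had a log2 fold change below 0, against 52.2% of all 29025 genes tested. The filter required 3 or more mice, of any group, to reach an RPKM of 0.1, and it left out only Ifi44. Differences were tested with limma on log2(RPKM + 0.1), a scale on which the changes of genes near 0.1 look smaller than their RPKM ratios. The unadjusted p was under 0.05 for 20 members, each lower in feb, against 6.16% of all genes, and 14 had no overlap between the 3 feb and 3 ICH mice, against 10.1% of all genes. The median log2 fold change of the members was -0.60, and that of all genes was -0.01. The study's criteria, an unadjusted p under 0.05 and a fold change over 2, were met by 4 members, Ifi27, Bst2, Psmb8, and H2-Eb1, against 2.43% of all genes. After Benjamini-Hochberg adjustment over all genes tested, 0 members passed 0.05 by limma, on RPKM or by voom on the recovered reads, where 2 of all genes (0.00689%) passed on RPKM, and the lowest adjusted p among the members was 0.219 for Ifi27. The differences of single genes are therefore given as measured values and are not adjusted calls.

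The count of 20 rested in part on single mice, and in a fit of only the feb and ICH mice it was 14. Without sham mouse 1, 2, or 3, which share the main fit, it was 16, 18, or 15. It was 6 without ICH mouse 2, 14 without ICH mouse 1, 27 without ICH mouse 3, 10 without feb mouse 1, 17 without feb mouse 2, and 9 without feb mouse 3, while 38 to 40 of the 40 members stayed below 0. The microglia markers moved with it, since 10 of 10 were lower in feb than in ICH, 7 of them with a p under 0.05, with a median log2 fold change of -0.68. Scaling each mouse to its summed microglia markers, a choice made after seeing the data, added 0.63 to the log2 fold change of every gene in feb against ICH, so it moves all genes alike and cannot single out a gene. On that scale 18 of 40 members (45%) and 6.07% of all genes were lower in feb, 0 members had a p under 0.05 by limma, and the median was 0.02 for the members and 0.62 for all genes.

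**Figure D2:**
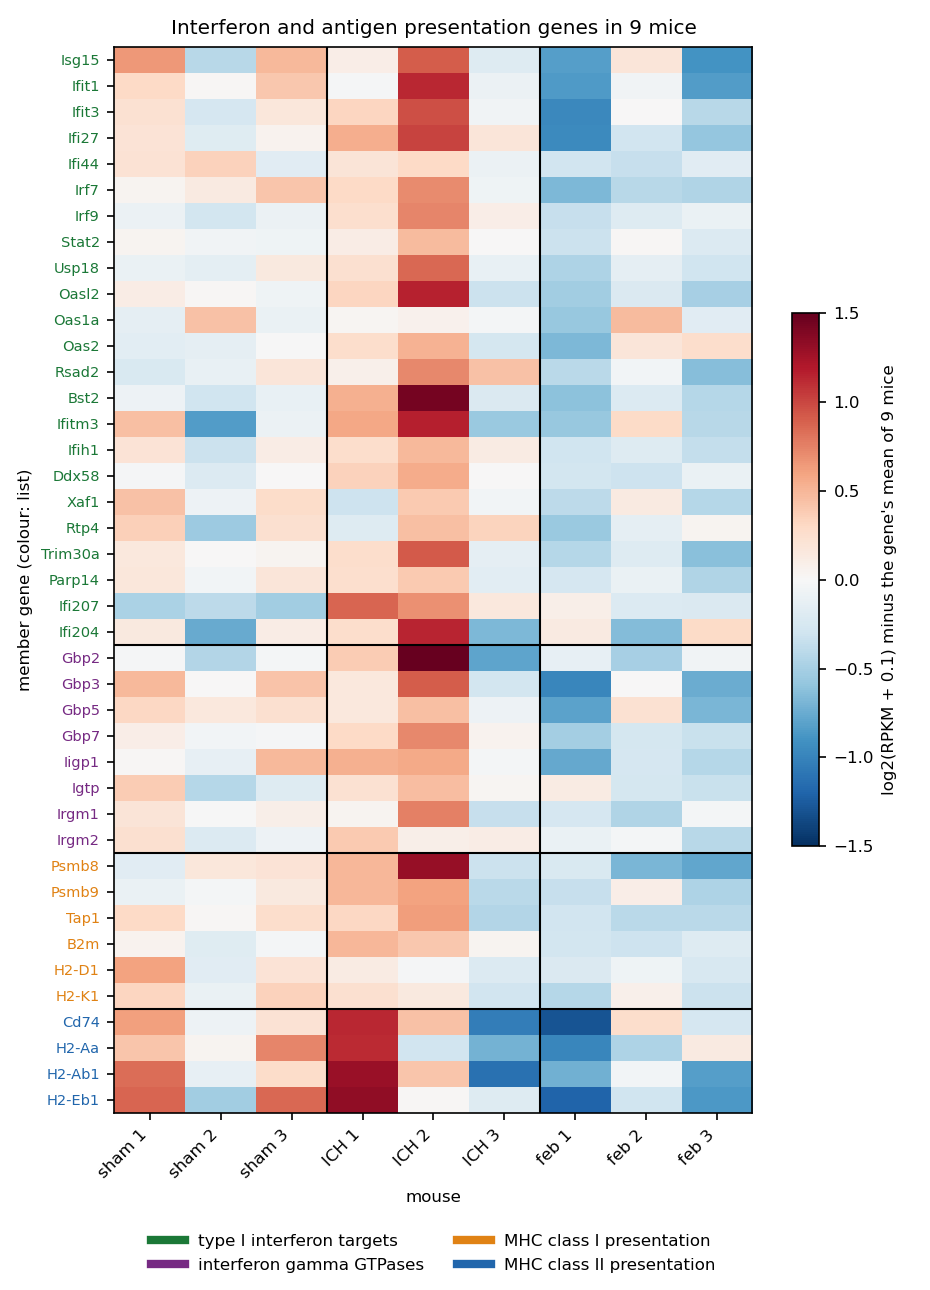
Each of the 41 members (rows, coloured by list) in each of 9 mice (columns), as log2(RPKM + 0.1) minus the mean of the gene over the 9 mice. Red is above and blue below that mean. The column of ICH mouse 2 is red in most rows of the first 3 lists, ICH mouse 1 is reddest in the 4 class II genes, and the feb columns are mostly blue.

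The difference between ICH and sham was smaller. On the log2 scale 29 of the 40 members were higher in ICH and 11 lower, against 38.9% of all genes lower. After quantile normalization 16 members and 49.2% of all genes were lower. Their median log2 fold change was 0.23 beside 0.08 for all genes, and when the medians of the mice were made equal it was 0.12 beside -0.03. The p was under 0.05 for 4 members, all higher in ICH, against 7.88% of all genes, namely Ifi27, Irf9, Ifi207, and B2m, and 0 were lower by limma, against 4.42%. Of these, 1 met the study's criteria, Ifi207, against 2.53% of all genes. Irf9 and Ifi207 were higher in every ICH mouse than in every sham mouse, against 13.2% of all genes, and 0 members were lower in every ICH mouse, against 6.22%. Adjusted over all genes, 0 members passed by limma, against 0.0241% of all genes, and the lowest adjusted p was 0.334. Without ICH mouse 2 the count at p under 0.05 was 1 and the median was 0.03, and without ICH mouse 3 the count was 11 and the median 0.44. The count was 2 without ICH mouse 1, both higher in ICH. It was also 2 without sham mouse 2, with 1 member higher and 1 lower in ICH, and there 2 members were lower in ICH without overlap. Scaled to the microglia markers, which lowered every log2 fold change by 0.46, 33 of 40 members were lower in ICH than in sham, against 85.6% of all genes, with a median of -0.23 beside -0.38.

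Against sham, the feb mice were lower in 37 of 40 members, against 41.2% of all genes, with a median log2 fold change of -0.38 beside 0.05. When the medians of the mice were made equal, the median was -0.49 beside -0.06. The p was under 0.05 for 5 members, all lower in feb, against 2.90% of all genes lower, 5.63% higher, and 8.54% in either direction, namely Ifi27, Irf7, Ifit1, Gbp3, and H2-Eb1, and only H2-Eb1 met the study's criteria, against 2.20% of all genes. In 13 members every feb mouse was below every sham mouse, against 4.90% of all genes. After adjustment by limma 0 of 40 passed, against 0.00345% of all genes, with a lowest adjusted p of 0.565. The count of 5 became 0 without sham mouse 3 or feb mouse 1, 1 without sham mouse 1 or feb mouse 3, 8 without sham mouse 2, 10 without feb mouse 2, and 11 without ICH mouse 3. Scaled to the microglia markers, 30 of 40 members were lower in feb than in sham, against 20.3% of all genes, with a median of -0.21 beside 0.22 for all genes and 0 members with a p under 0.05.

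**Figure D3:**
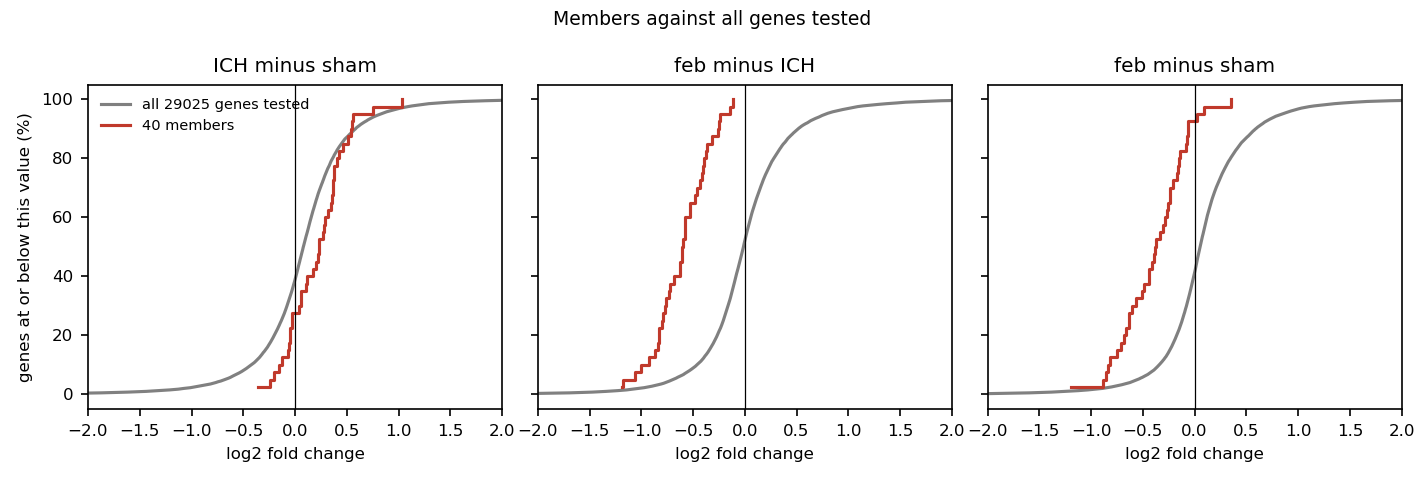
Share of genes (vertical axis, %) at or below each log2 fold change (horizontal axis, log2(RPKM + 0.1) scale) for the 40 members tested (red) and all 29025 genes tested (grey), per comparison. For feb minus ICH the whole red curve lies left of 0, with a median of -0.60 (0.02 when mice were scaled to their microglia markers, where all genes had 0.62), while the grey curve crosses 50% close to 0.

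The 3 comparisons share mice, so their values are given side by side. By mean RPKM, which weighs high values more than the log2 scale does, ICH was above sham in 34 of 40 members, against 61.4% of all genes. The order was ICH above sham above feb in 31, against 17.4% of all genes, and the feb mean was the lowest in 37, against 27.7%. In 6 members every feb mouse was below all 6 other mice, against 2.01% of all genes: Ifi27, Irf7, and Trim30a among the type I targets, Gbp7 and Iigp1 among the GTPases, and B2m among the class I genes. The highest value of the 9 mice fell in an ICH mouse for 36 members, against 38.7% of all genes, 29 times in ICH mouse 2 (16.2% of all genes), 7 times in ICH mouse 1 (14.9%), and 0 times in ICH mouse 3. ICH mouse 3 had the lowest value of its group in 36 of 40, against 38.1% of all genes. The lowest value of the 9 mice fell in a feb mouse for 33 members, against 29.9% of all genes, 20 times in feb mouse 1 (8.2% of all genes).

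**Figure D4:**
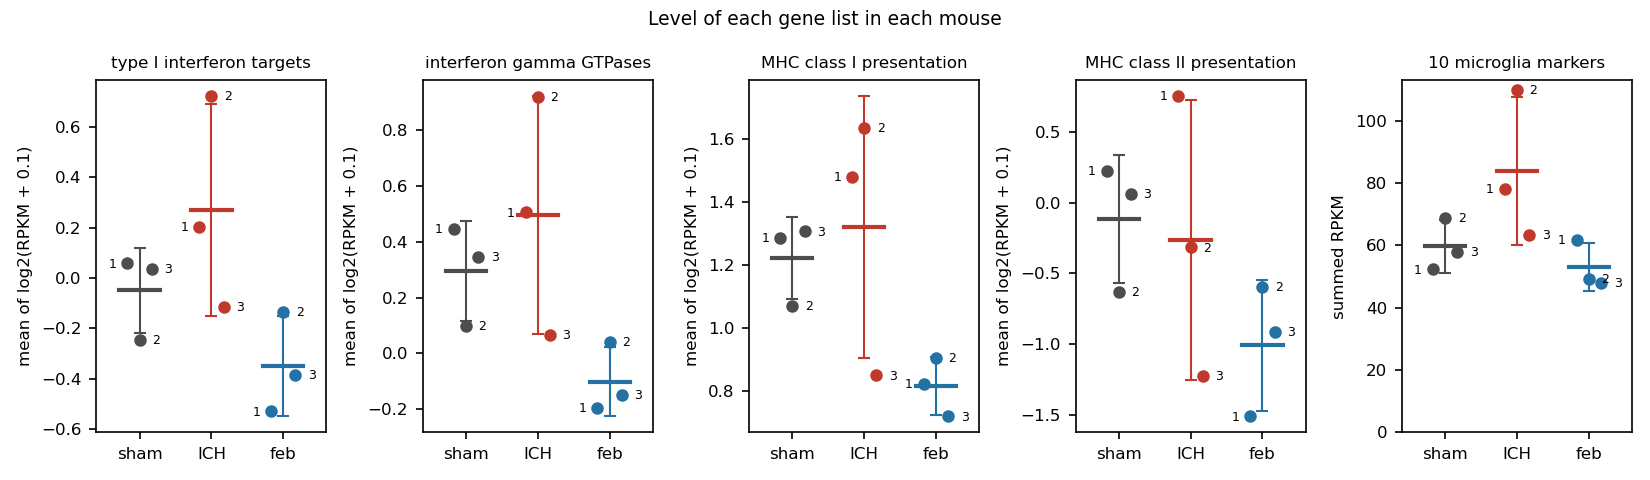
Mean log2(RPKM + 0.1) of the tested members of each list (4 left panels) and summed RPKM of 10 microglia markers (right panel) in each mouse, numbered by replicate, with the group mean (bar) and SD (whiskers, n = 3). ICH mouse 2 is the highest of the 9 mice for the type I targets, the GTPases, the class I genes, and the microglia markers, and ICH mouse 1 for the class II genes.

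Among the type I interferon targets, 22 of 22 tested genes were lower in feb than in ICH, with a median log2 fold change of -0.63, or -0.00 after the 0.63 that microglia scaling adds to every gene, and 14 had a p under 0.05. Without ICH mouse 2 the 14 became 3, and without feb mouse 1 or feb mouse 3 they became 6. The median was 0.33 in ICH against sham and -0.28 in feb against sham, and the first was 0.08 without ICH mouse 2, 0.21 without sham mouse 2, and 0.50 without ICH mouse 3. The mean log2 level of the list was 0.20, 0.72, and -0.11 in ICH mice 1 to 3 and -0.53, -0.14, and -0.39 in feb mice 1 to 3, so that feb mouse 2 lay just below ICH mouse 3. ICH mouse 2 was the highest of the 9 mice in 19 of these 22 genes.

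The members that carry the signal into the nucleus are described first. Irf9, the DNA-binding part of the type I complex, had an RPKM of 1.65, 1.44, and 1.65 in sham, 2.12, 2.99, and 1.89 in ICH, and 1.36, 1.53, and 1.63 in feb. Every ICH mouse was above every mouse of the other groups. The log2 fold change was 0.51 ± 0.18 (SE) in ICH against sham and -0.58 ± 0.18 in feb against ICH, with limma adjusted p-values of 0.366 and 0.338. The difference between ICH and sham kept a p under 0.05 in 15 of 20 settings tried, and that between feb and ICH in 19 of 20. The former lost it with equal medians, quantile normalization, or microglia scaling, and without sham mouse 2 or ICH mouse 2. Between feb and sham Irf9 differed by -0.06 ± 0.18. Stat2, its partner, read 4.30, 4.03, and 3.99 in sham, 4.51, 5.83, and 4.21 in ICH, and 3.33, 4.23, and 3.60 in feb. The feb mice reached into the ICH range with feb mouse 2, and the log2 fold change was -0.37 ± 0.14. Irf7, the transcription factor that amplifies interferon production, read 0.574, 0.618, and 0.773 in sham, 0.703, 0.967, and 0.526 in ICH, and 0.310, 0.388, and 0.379 in feb. All feb mice were below all others, by -0.83 ± 0.24 against ICH and -0.71 ± 0.24 against sham, whereas sham and ICH overlapped. In 18 of 19 settings tried the difference of Irf7 between feb and ICH kept a p under 0.05.

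The antiviral effectors are the largest group of members. Ifi27, a small mitochondrial protein and among the most strongly induced interferon targets, read 5.08, 3.83, and 4.54 in sham, 6.40, 8.97, and 4.97 in ICH, and 2.21, 3.56, and 2.90 in feb. It had the smallest p of all members between feb and ICH, with a log2 fold change of -1.19 ± 0.24 and a limma adjusted p of 0.219 that ranged from 0.159 to 0.512 over the settings tried. Without ICH mouse 2 it no longer met the fold change of 2. Against sham it was 0.55 ± 0.24 higher in ICH, where ICH mouse 3 lay within the sham range, and -0.63 ± 0.24 in feb, where no feb mouse did. The ICH against sham difference kept a p under 0.05 in only 9 of 20 settings.

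Bst2, or tetherin, holds budding virus at the cell surface. It read 1.5, 1.27, and 1.46 in sham, 2.35, 4.46, and 1.35 in ICH, and 1.004, 1.36, and 1.15 in feb. ICH mouse 3 lay at the level of sham and of the highest feb mouse, and ICH mouse 2 set the group apart. The log2 fold change of -1.0 ± 0.36 between feb and ICH met the study's criteria, but not without ICH mouse 2, feb mouse 1, or feb mouse 3. Ifitm3, which blocks virus entry at the membrane, read 4.39, 1.75, and 2.99 in sham, 4.82, 7.29, and 2.14 in ICH, and 2.12, 3.91, and 2.37 in feb. The 3 groups overlapped, and it met the criteria in both comparisons with ICH only without ICH mouse 3.

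Ifit3 and Ifit1 encode tetratricopeptide proteins that bind foreign RNA. Ifit3 was the most abundant type I target by RPKM, with 12.6, 8.99, and 12.2 in sham, 13.4, 21.1, and 10.4 in ICH, and 5.46, 10.8, and 8.03 in feb. Ifit1 read 1.22, 0.994, and 1.33 in sham, 0.969, 2.26, and 0.920 in ICH, and 0.498, 0.940, and 0.506 in feb. Both were low in feb mice 1 and 3 and overlapped with ICH through feb mouse 2. The log2 fold changes between feb and ICH were -0.87 ± 0.30 for Ifit3 and -0.92 ± 0.36 for Ifit1. For Ifit1 all feb mice were below all sham mice, by -0.82 ± 0.36. Ifit3 and its near copy Ifit3b may share reads, and the handling of such reads is not stated.

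Isg15, a ubiquitin-like protein attached to other proteins during the response, read 1.70, 0.759, and 1.51 in sham, 1.14, 2.06, and 0.909 in ICH, and 0.550, 1.21, and 0.516 in feb, from 9 to 41 reads. Its promoter holds the 3 overlapping cores shown above, but its spread was wide, with a log2 fold change of -0.79 ± 0.42 between feb and ICH and overlap through feb mouse 2. Without feb mouse 2 it met the study's criteria against ICH and against sham. Usp18, the protease that removes Isg15 and dampens the receptor, read 0.498, 0.480, and 0.612 in sham, 0.659, 1.06, and 0.493 in ICH, and 0.366, 0.483, and 0.420 in feb. Feb mouse 2 lay below ICH mouse 3 by a narrow gap, so the groups were apart, and the log2 fold change was -0.63 ± 0.27. Its p stayed under 0.05 in 7 of 19 settings.

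Rsad2, or viperin, read 0.180, 0.203, and 0.271 in sham, 0.245, 0.439, and 0.344 in ICH, and 0.148, 0.220, and 0.110 in feb, from 11 to 50 reads. All feb mice were below all ICH mice, by -0.77 ± 0.28. Oasl2, a member of the oligoadenylate synthetase family, read 0.675, 0.624, and 0.586 in sham, 0.795, 1.497, and 0.473 in ICH, and 0.397, 0.516, and 0.408 in feb. It overlapped between feb and ICH, with a log2 fold change of -0.80 ± 0.34, and kept a p under 0.05 in 8 of 19 settings. Trim30a, a TRIM protein known to restrain innate signalling, read 0.889, 0.791, and 0.813 in sham, 0.964, 1.57, and 0.706 in ICH, and 0.561, 0.675, and 0.475 in feb. Every feb mouse was below all others, by -0.76 ± 0.27 against ICH.

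Ifih1, the RNA sensor MDA5, read 0.784, 0.515, and 0.728 in sham, 0.820, 0.973, and 0.739 in ICH, and 0.523, 0.573, and 0.499 in feb. Ddx58, the RNA sensor RIG-I, read 0.893, 0.776, and 0.913 in sham, 1.18, 1.38, and 0.910 in ICH, and 0.734, 0.714, and 0.843 in feb. Neither overlapped between feb and ICH, with log2 fold changes of -0.57 ± 0.20 for Ifih1 and -0.53 ± 0.19 for Ddx58. Ifi207, of the family of DNA-binding p200 proteins, was the member with the largest difference between ICH and sham. It read 0.0778, 0.0879, and 0.0715 in sham, 0.352, 0.295, and 0.176 in ICH, and 0.163, 0.114, and 0.112 in feb, from 7 to 30 reads. The 3 groups did not overlap at all, with log2 fold changes of 1.03 ± 0.28 in ICH against sham, -0.68 ± 0.28 in feb against ICH, and 0.35 ± 0.28 in feb against sham. It was the only member in which every feb mouse was above every sham mouse, against 7.78% of all genes. Its p in ICH against sham stayed under 0.05 in 18 of 19 settings, but without ICH mouse 1 or 2 it did not meet the study's criteria. In feb against ICH its p stayed under 0.05 in only 9 of 19 settings. Genes of this family resemble each other, so its reads may be shared with Ifi204.

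The remaining type I targets, Oas1a, Oas2, Xaf1, Rtp4, Parp14, and Ifi204, had mean RPKM values from 0.119 for Oas2 to 0.833 for Rtp4. Their log2 fold changes between feb and ICH ran from -0.43 ± 0.20 for Parp14 to -0.11 ± 0.33 for Oas1a, and all 6 overlapped between these groups. Oas1a had 4 to 13 reads and Ifi44, left out of the test, 3 to 15 reads per mouse. In Rtp4, 13.9% of the exon bases are shared with Gm45338 on the same strand.

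**Figure D5:**
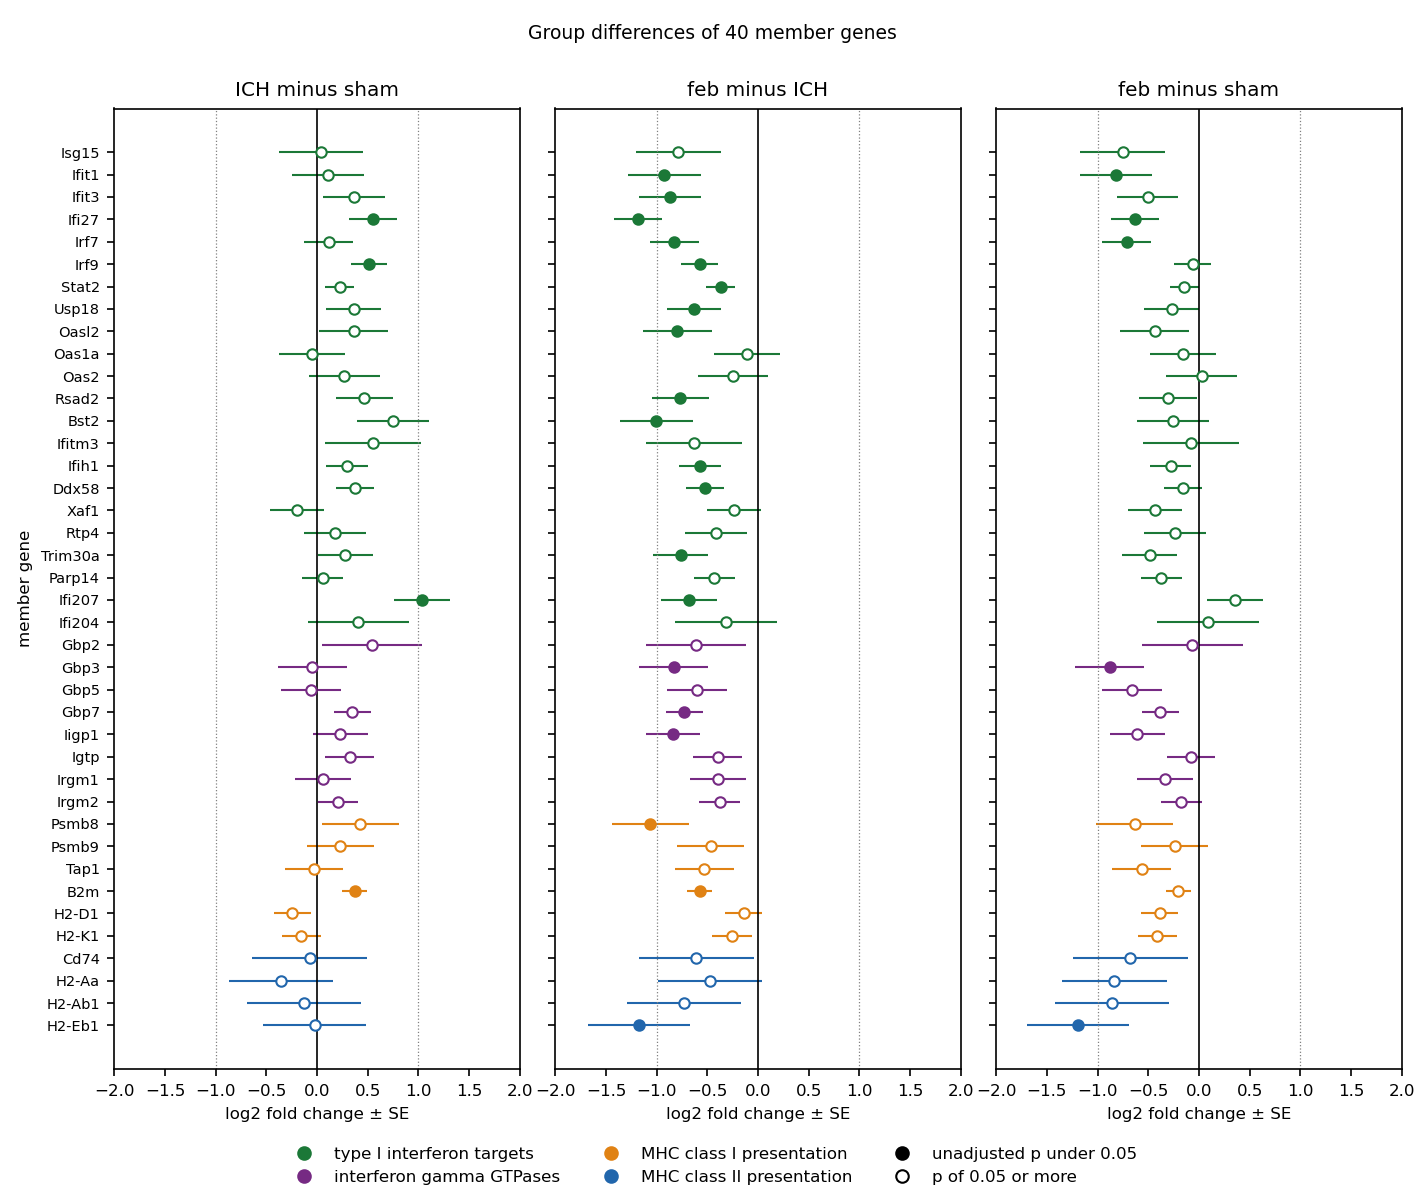
Log2 fold change (horizontal axis) with its SE (whiskers) from limma for the 40 members tested, by comparison and coloured by list. Filled points have an unadjusted p under 0.05 and dotted lines mark a fold change of 2. In feb minus ICH all 40 points lie left of 0, from -1.19 for Ifi27 to -0.11 for Oas1a, and 20 are filled, where scaling to microglia markers, which adds 0.63 to every gene, left 18 below 0.

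The GTPases induced by interferon gamma attack the membranes of vacuoles that hold microbes. All 8 were lower in feb than in ICH, with a median of -0.61, or 0.02 after that scaling, and 3 had a p under 0.05. All 8 were also lower in feb than in sham, with a median of -0.36, and the median of ICH against sham was 0.22. The latter was 0.04 without ICH mouse 2, 0.13 without ICH mouse 1, 0.11 without sham mouse 2, and 0.37 without ICH mouse 3. ICH mouse 2 was the highest of the 9 mice in 7 of 8.

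Gbp7, whose promoter is printed above, read 1.70, 1.54, and 1.56 in sham, 1.98, 2.67, and 1.65 in ICH, and 1.08, 1.30, and 1.24 in feb. Every feb mouse was below all 6 others, by -0.73 ± 0.18 against ICH and -0.38 ± 0.18 against sham, with limma adjusted p-values of 0.271 and 0.614. It kept a p under 0.05 against ICH in 19 of 20 settings. Of its exon bases, 11.4% are shared with Gm43802 on the same strand. Iigp1 read 0.510, 0.454, and 0.741 in sham, 0.772, 0.792, and 0.489 in ICH, and 0.254, 0.406, and 0.347 in feb. It was lower in all feb mice than in the others, by -0.84 ± 0.27 against ICH and -0.61 ± 0.27 against sham.

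Gbp3 was the most abundant GTPase, with 4.18, 2.97, and 4.01 in sham, 3.29, 5.61, and 2.42 in ICH, and 1.45, 2.96, and 1.73 in feb. Feb mouse 2 was almost level with the lowest sham mouse and above ICH mouse 3, while the other feb mice were below all others. The log2 fold change was -0.83 ± 0.34 against ICH and -0.88 ± 0.34 against sham, and -0.05 ± 0.34 between ICH and sham. Gbp2 read 1.32, 0.958, and 1.30 in sham, 1.77, 4.11, and 0.729 in ICH, and 1.22, 0.913, and 1.28 in feb. ICH mouse 2 was far above and ICH mouse 3 below all other mice, and the log2 fold change of -0.61 ± 0.50 met the criteria only without ICH mouse 3. Gbp5, Igtp, Irgm1, and Irgm2 had mean RPKM values of 0.524 to 1.42 and log2 fold changes between feb and ICH of -0.60 ± 0.30 for Gbp5 to -0.38 ± 0.20 for Irgm2. Of these 4 only Irgm2 did not overlap between feb and ICH. Igtp and Irgm2 share 162 exon bases on the same strand, so their reads are not fully separate.

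In MHC class I presentation, 6 of 6 genes were lower in feb than in ICH, with a median of -0.50, or 0.13 after that scaling, and 2 had a p under 0.05. Against sham the median was -0.40 in feb and 0.10 in ICH, the latter being -0.01 with equal medians, -0.10 without ICH mouse 2, -0.00 without ICH mouse 1, 0.04 without sham mouse 2, 0.15 without sham mouse 3, and 0.39 without ICH mouse 3. B2m, the light chain that every class I molecule needs, was the most abundant member, with 12.91, 10.99, and 12.20 in sham, 17.62, 16.62, and 12.88 in ICH, and 10.32, 10.04, and 10.89 in feb. ICH mouse 3 lay at the top of the sham range and all feb mice were below all sham mice. The log2 fold change was 0.37 ± 0.12 in ICH against sham, -0.58 ± 0.12 in feb against ICH, and -0.20 ± 0.12 in feb against sham, with limma adjusted p-values of 0.353, 0.234, and 0.656. It had the smallest SE of all members and kept a p under 0.05 between feb and ICH in 19 of 20 settings. Between ICH and sham it did so in 15 of 20. It did not with equal medians, under microglia scaling, or without sham mouse 2, ICH mouse 1, or ICH mouse 2.

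The heavy chains did not follow B2m in ICH. H2-D1 read 17.12, 9.93, and 12.90 in sham, 12.19, 11.10, and 9.68 in ICH, and 9.61, 10.71, and 9.45 in feb, and H2-K1 read 7.37, 5.52, and 7.50 in sham, 7.0, 6.55, and 4.80 in ICH, and 4.37, 6.197, and 4.70 in feb. The groups overlapped in both genes. Between feb and ICH H2-D1 differed by -0.14 ± 0.18 and H2-K1 by -0.26 ± 0.19, and between ICH and sham by -0.25 ± 0.18 and -0.15 ± 0.19. These heavy chains are close copies and may share reads. Psmb8, a subunit of the immunoproteasome that cuts peptides for class I, read 0.705, 0.923, and 0.949 in sham, 1.18, 2.15, and 0.628 in ICH, and 0.677, 0.463, and 0.428 in feb. Its log2 fold change of -1.06 ± 0.38 between feb and ICH met the study's criteria, but not without ICH mouse 2, feb mouse 2, or feb mouse 3, and ICH mouse 3 lay within the feb range. Psmb9, another such subunit, and Tap1, part of the peptide transporter, differed by -0.47 ± 0.33 and -0.53 ± 0.29. They lie head to head and share 212 exon bases on opposite strands.

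The 4 genes of MHC class II presentation had wide spreads, with SEs of 0.50 to 0.57 on the log2 scale. All 4 were lower in feb than in ICH, with a median of -0.67, or -0.04 after microglia scaling, and 1 had a p under 0.05. The median ran from -1.30 without ICH mouse 3 to -0.16 without ICH mouse 1. All 4 were lower in feb than in sham, with a median of -0.85. Between ICH and sham the median of the 4 log2 fold changes was -0.10, but by mean RPKM 3 of 4 were higher in ICH, and the median was 0.12 without sham mouse 1, 0.40 without ICH mouse 3, -0.42 without sham mouse 2, -0.61 without ICH mouse 1, and -0.20 without ICH mouse 2. ICH mouse 1 was the highest of the 9 mice in 4 of 4, and ICH mouse 3 the lowest ICH mouse in 4 of 4, so the mouse that led the other lists did not lead here.

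Cd74, the invariant chain that escorts class II molecules, read 1.99, 1.19, and 1.49 in sham, 2.90, 1.75, and 0.569 in ICH, and 0.455, 1.55, and 1.05 in feb. H2-Ab1, a beta chain, read 1.55, 0.748, and 1.02 in sham, 2.17, 1.14, and 0.327 in ICH, and 0.462, 0.799, and 0.424 in feb. The groups overlapped in both, with log2 fold changes between feb and ICH of -0.61 ± 0.57 for Cd74 and -0.73 ± 0.56 for H2-Ab1. H2-Eb1, the other beta chain, read 1.94, 0.679, and 1.92 in sham, 2.69, 1.03, and 0.871 in ICH, and 0.383, 0.803, and 0.513 in feb, from 12 to 78 reads. All feb mice were below all ICH mice, but feb mouse 2 was above sham mouse 2. H2-Eb1 met the study's criteria in feb against ICH, with -1.17 ± 0.50, and against sham, with -1.20 ± 0.50, and its limma adjusted p was 0.447 and 0.583. The first call was lost when any of 6 mice was left out, namely sham mouse 1 or 3, ICH mouse 1 or 2, and feb mouse 1 or 3, and the second when sham mouse 1 or 3, ICH mouse 2, or feb mouse 1 or 3 was. H2-Aa, the alpha chain, had 0 to 15 reads per mouse.

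Markers of cells known to carry class II were summed in the same mice. The summed RPKM of 6 border macrophage markers, all above 0 in every mouse, was 3.33 to 3.98 in sham, 3.02 to 7.13 in ICH, and 3.06 to 4.19 in feb, highest in ICH mouse 1. The 6 monocyte markers summed to 5.40 to 7.04, 2.86 to 12.1, and 3.53 to 5.08 in the 3 groups, highest in ICH mouse 2, with Plac8 at 0 in 4 mice and Chil3 in 3. The 7 dendritic cell markers summed to 3.50 to 4.65 in sham, 3.29 to 3.71 in ICH, and 3.34 to 4.76 in feb. A set of 5 B cell markers, 2 of them at 0 in some mice, summed to 3.08 to 5.98 in sham, 3.78 to 6.83 in ICH, and 1.43 to 2.84 in feb, below every other mouse in feb and highest in ICH mouse 3, the ICH mouse with the lowest class II genes. The part of these cells in the class II values was not tested. The choroid plexus markers were lower in feb than in sham and ICH in 8 of 8 genes, and their part was not tested either.

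Of 132 other genes of interferon signalling and antigen presentation, 107 passed the filter. Between feb and ICH 90 were lower and 17 higher, against 52.2% of all genes lower, with a median of -0.27 beside -0.01. Of the 107, 16 had a p under 0.05, against 11.1% of all genes, and 15 of them were lower in feb, against 6.16%. Between feb and sham 75 of the 107 were lower, against 41.2% of all genes, with a median of -0.11 beside 0.05. Here 10 had a p under 0.05, against 8.54% of all genes. Between ICH and sham 77 were higher and 30 lower, against 38.9% of all genes lower, with a median of 0.13 beside 0.08. Here 3 had a p under 0.05, against 12.3% of all genes.

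The ligands were almost unseen. Of 11 listed, Ifnk alone passed the filter, with 1 to 9 reads per mouse, and RPKM values of 0.168 to 0.428 in sham, 0.254 to 0.425 in ICH, and 0.0539 to 0.329 in feb. Ifna1 had at most 2 reads in any mouse, Ifnz at most 4, and Ifna2, Ifna4, Ifne, and Ifng, the gene of interferon gamma, at most 1. Ifna5, Ifnb1, Ifnl2, and Ifnl3 were not among the 38621 genes with values, a list that holds no gene at 0 in all 9 mice. A count of 0 allows up to 3 reads, so for a ligand at 0 in a mouse, absence cannot be told from a level too low for this depth.

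Of 9 receptors and kinases, 8 were lower in feb than in ICH, against 52.2% of all genes, and 1 had a p under 0.05, against 11.1%. Of 12 transcription factors, 10 were lower, with a median of -0.08, and the only p under 0.05 was of Rfxap, which serves class II promoters and was 0.17 ± 0.07 higher in feb. It read 16.9, 15.3, and 15.5 in sham, 14.1, 14.5, and 14.2 in ICH, and 16.3, 15.5, and 16.4 in feb, and its ICH mice were below all feb mice. Of 13 sensing genes 7 were lower in feb than in ICH and 0 had a p under 0.05 by limma, and Tbk1, the kinase below the sensors, was higher in feb than in sham by 0.26 ± 0.08. Its RPKM was 13.8, 15.1, and 15.3 in sham, 15.6, 16.3, and 16.5 in ICH, and 18.0, 16.4, and 18.5 in feb, without overlap of feb and sham. Of 8 inhibitors 7 were lower in feb than in ICH, 0 with a p under 0.05, and Ptpn2, a phosphatase of the Jak kinases, was 0.25 ± 0.10 higher in ICH than in sham. It read 3.82, 4.11, and 3.73 in sham, 4.39, 5.20, and 4.39 in ICH, and 4.13, 4.27, and 4.63 in feb. Rfxap and Tbk1 are named because they stood alone in their lists, after their values were seen.

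Of 31 other type I targets, 29 were lower in feb than in ICH, against 52.2% of all genes, and 6 had a p under 0.05, all lower, against 6.16% of all genes. Of 10 other GTPases 10 were lower, 5 with a p under 0.05, against the same shares. Between feb and sham 6 of these 10 GTPases had a p under 0.05, all lower in feb, against 2.90% of all genes, and their median was -0.76 beside -0.36 for the 8 member GTPases, a difference that was not tested. The study's criteria were met between feb and sham by 3 of the 107 genes, against 2.20% of all genes. All 3 were among these 10 GTPases and lower in feb. Between feb and ICH the criteria were met by 4 of the 107, against 2.43% of all genes, namely Samd9l, Tgtp1, Tgtp2, and Ifitm1. Samd9l, an antiviral protein, read 1.06, 0.627, and 0.957 in sham, 1.58, 1.58, and 0.816 in ICH, and 0.494, 0.467, and 0.479 in feb, with all feb mice below all others and a log2 fold change of -1.24 ± 0.28. Tgtp1 read 0.391, 0.275, and 0.189 in sham, 0.280, 0.558, and 0.298 in ICH, and 0.0354, 0.185, and 0.0271 in feb, from 2 to 47 reads. Tgtp2 read 0.369, 0.391, and 0.545 in sham, 0.417, 0.453, and 0.221 in ICH, and 0.0643, 0.202, and 0.0738 in feb, from 5 to 45 reads. Both of these GTPases were lower in every feb mouse than in any other, by -1.45 ± 0.40 and -1.14 ± 0.34 against ICH, and they are near-identical copies that may share reads. Ifitm1 differed by -1.12 ± 0.43 between feb and ICH on 3 to 25 reads, with overlap.

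Gbp11, a further guanylate-binding protein, had another order of groups. It read 0.654, 0.554, and 0.595 in sham, 0.243, 0.184, and 0.397 in ICH, and 0.0842, 0.338, and 0.274 in feb, from 6 to 52 reads. It was lower in both groups injected with blood than in sham, by -0.94 ± 0.36 in ICH and -1.17 ± 0.36 in feb. In class I, 3 of 16 other genes had a p under 0.05 between feb and ICH, all lower in feb, against 6.16% of all genes. Canx, a chaperone of class I folding, was lower in ICH than in sham by -0.29 ± 0.11. Its RPKM values were 132.7, 101.6, and 124.7 in sham and 94.7, 100.1, and 97.8 in ICH. Only 3 of the 107 genes had a p under 0.05 between ICH and sham, against 12.3% of all genes, so such differences were no more frequent than over all genes. Of 7 other class II genes 6 were lower in feb than in ICH, against 52.2% of all genes, and 0 had a p under 0.05 by limma.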

How the data were processed

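Brain RNA of 9 mice was measured by RNA-seq, 3 each in the sham, ICH, and feb groups, and groups were taken from the sample labels. The authors trimmed reads (Trimmomatic 0.36), collapsed them by UMI, aligned them to GRCm38, counted them on exons with featureCounts (Subread 1.5.1), and deposited RPKM values with exon lengths and positions. Whether strand was used, and how reads on several genes were counted, is not given in the sources used here. The whole reads behind 100% of the deposited RPKM values were recovered. The authors tested with edgeR 3.12.1. Counts were not the deposited unit, so limma 3.58.1 in R 4.3.3 (lmFit, eBayes with trend, two-sided) was run on log2(RPKM + 0.1), with all 9 mice in 1 fit without a block. It covered 29025 genes that reached an RPKM of 0.1 in 3 or more mice, and p-values were adjusted over them by Benjamini-Hochberg. With 3 mice against 3, the smallest exact two-sided permutation p is 0.1. Nothing in the labels says more on how replicates were raised, so p-values measure the spread between these mice. Pairs of mice within a group differed by a chi-square per gene of 13.9 to 48.6, so none was a copy.

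The members and the gene lists were chosen with earlier results of these data known, so medians and counts describe them and no test was run over a list. Values in every mouse are given for members with an unadjusted p under 0.05 in any comparison, for the 3 most abundant of each list, and for those whose call by the study's criteria changes when 1 mouse is left out. Of the other pathway genes, those that met the criteria are named, with up to 3 per comparison that had a p under 0.05 and no overlap. All 41 members were found in GENCODE M21 as protein-coding genes on GRCm38, 31 with the same start and end as in the table. Promoters came from RefSeq, and tables were made with Python 3.11.15 and pandas 2.3.3. The limma script was tested on simulated data. Alternatives were other pseudocounts and filters, equal medians, quantile normalization, eBayes without trend, a replicate block, voom with TMM factors on recovered reads, fits of 2 groups, each mouse left out, and, chosen after seeing the data, scaling to 10 microglia markers. The values of some marker genes are not reported here.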

Additional observations from a re-analysis of the deposited data

How the results depend on the processing

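The number of members that met the study's criteria was 1, 4, and 1 in ICH against sham, feb against ICH, and feb against sham, and a pseudocount of 1 made it 0, 0, and 0, as did scaling to the microglia markers. It was 0 in ICH against sham and 2 in feb against ICH with an RPKM of at least 1, 0 in ICH against sham with equal medians or quantile normalization, 0 in feb against sham with eBayes without trend, and 4, 20, and 5 with no fold change criterion. Leaving out 1 mouse gave 0 to 4, 0 to 15, and 0 to 4. The number with a p under 0.05 was 4, 20, and 5. It was 9 in feb against ICH and 3 in feb against sham with an RPKM of at least 1, which 19 members passed. It was 1 in ICH against sham and 13 in feb against sham with equal medians, and 2 and 12 with quantile normalization. Under microglia scaling it was 1, 0, and 0, the 1 being a class I gene lower in ICH, whereas the 4 were higher. In feb against sham it was 3 with a pseudocount of 1, 12 with voom, and 10 in a fit of only those 2 groups. In feb against ICH the fit of only 2 groups gave 14. Leaving out 1 mouse gave 1 to 11, 6 to 27, and 0 to 11. Of the other pathway genes, 0, 4, and 3 met the criteria. In ICH against sham this became 1 with equal medians, quantile normalization, voom, or microglia scaling. In feb against ICH it became 0 with a pseudocount of 1 and 1 with an RPKM of at least 1. In feb against sham it became 0 in both cases, 5 with a pseudocount of 0.01 or voom, and 1 under microglia scaling. Leaving out 1 mouse gave 0 to 4, 2 to 8, and 2 to 7. List medians in feb against ICH were -0.29, -0.29, and -0.21 for type I targets, GTPases, and class I genes with a pseudocount of 1, a scale that compresses low values, and -0.00, 0.02, and 0.13 under microglia scaling, where ICH against sham gave -0.13, -0.24, and -0.36. Without 1 mouse the class I median in ICH against sham ran from -0.10 to 0.39. Microglia scaling adds -0.46 and 0.63 to every gene in ICH against sham and feb against ICH, and among the named genes with a p under 0.05 it was the setting that reversed any, namely B2m to -0.09 in ICH against sham, and in feb against ICH Irf9 to 0.05, Stat2 to 0.26, Ifih1 to 0.05, Ddx58 to 0.10, and B2m to 0.05. These reversals follow from a shift common to all genes, and the cause of the other changes was not tested. Beyond single mice left out, 246 values of named genes kept direction and side of the threshold, 55 lost a p under 0.05, and 6 reversed. With equal medians, the genes with a p under 0.05 in ICH against sham went from 2288 higher and 1282 lower to 1161 higher and 2053 lower, and in feb against sham from 1635 and 843 to 1002 and 1500.

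Replicate numbers did not pair the mice, since the deviations of same-numbered mice correlated at -0.127 to 0.0194 over 9 pairs and those of different numbers at -0.121 to 0.166 over 18. With the replicate number as a block, 1, 3, and 0 members met the criteria and 3, 17, and 4 had a p under 0.05 in ICH against sham, feb against ICH, and feb against sham. The call lost in feb against sham was that of H2-Eb1. Genes with under about 10 reads, such as H2-Aa, Oas1a, and Ifi207 in sham, are limited by depth.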
